A study of Mus musculus with 8 samples.

Results

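The shutoff and calcium feedback genes of phototransduction were examined in the neural retina of Mfp2-/- mice at 3 weeks of age. They are the 10 genes with the symbols Grk1, Sag, Arr3, Rgs9, Rgs9bp, Rcvrn, Gucy2e, Gucy2f, Guca1a and Guca1b, chosen by their role out of 43472 symbols in the count tables. The 8 libraries were made from C57BL/6J mice at postnatal day 21, with both neural retinas of a mouse in each library. The control group held 3 Mfp2+/+ mice and 1 Mfp2+/- mouse, which is control replicate 2, and the other group held 4 Mfp2-/- mice. Mfp2 encodes multifunctional protein 2 (MFP2), an enzyme of peroxisomal β-oxidation. The mutants were knockout mice born of heterozygous pairs, and the loss of MFP2 was not confined to the retina. A 3′ end library kit was used, and the values are reads per gene.

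Rods and cones answer light by closing cyclic nucleotide-gated channels. Light-activated visual pigment switches on transducin, transducin switches on the phosphodiesterase PDE6, and the fall in cGMP closes the channels. Every step has to be switched off again: the opsin kinase GRK1 phosphorylates the active pigment, arrestin caps it, and the RGS9 complex makes transducin hydrolyse its GTP. Because closed channels also let in less calcium, the calcium sensors recoverin, GCAP1 and GCAP2 feed back on the kinase and on the guanylate cyclases that restore cGMP.

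The stretches just before the transcription start of 4 of these genes are shown, since they share the core letters of the motif of CRX, a homeodomain factor of photoreceptors. RefSeq (GRCm38.p6) gave a start for 7 of the 10 genes, Grk1, Sag, Arr3, Rgs9, Gucy2e, Gucy2f and Guca1a. The letters TAATCC were searched on both strands, in which case they read GGATTA on the other, in the 250 bases before the start. They were found in 4 of the 7 genes, against 6.25% of all 32851 promoters in the table. The letters TGCTGA or TCAGCA, part of the motif of the rod factor NRL, were found in Sag and Rgs9, against 16.1% of all promoters. Grk1 and Arr3 held neither in this window. In Sag, Gucy2e, Gucy2f and Guca1a the CRX letters lay within 100 bases of the start, as in 2.30% of all promoters. These 100 bases are written 5′ to 3′ on the strand of the gene, with the CRX letters in capitals. For Rgs9, Gucy2e, Gucy2f and Guca1a the RefSeq start differs from the gene positions given below, which are from GENCODE M21. In Gucy2e the bases 69237023 to 69237036 of the stretch lie within its GENCODE position. A match of letters is a description of the sequence and not a site of binding.
Sag, chr1:87803580-87803679, plus strand: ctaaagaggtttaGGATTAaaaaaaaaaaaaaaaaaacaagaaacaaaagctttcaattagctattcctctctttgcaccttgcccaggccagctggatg
Gucy2e, chr11:69237023-69237122, minus strand: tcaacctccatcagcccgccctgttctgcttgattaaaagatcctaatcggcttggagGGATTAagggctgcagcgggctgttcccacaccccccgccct
Gucy2f, chrX:142196937-142197036, minus strand: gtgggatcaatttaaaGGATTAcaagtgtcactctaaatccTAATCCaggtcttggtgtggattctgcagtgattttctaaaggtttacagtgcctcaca
Guca1a, chr17:47400607-47400706, minus strand: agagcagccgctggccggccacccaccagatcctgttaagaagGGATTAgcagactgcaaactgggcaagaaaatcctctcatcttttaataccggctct

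Control libraries held 2340974 to 3226187 counts in genes and Mfp2-/- libraries 1895485 to 2826553. Hsd17b4, the gene that encodes MFP2, had 20 to 78 counts in the control libraries and 0 or 1 in the Mfp2-/- libraries. Summed over 12 rod markers, the level in CPM (counts scaled to library size with TMM factors) was 19490 to 24580 in control and 897 to 1235 in Mfp2-/- retinas. Over 9 cone markers it was 1426 to 1667 and 952 to 993, but these did not move together: 5 were downregulated and 2 upregulated, with log2 fold changes from -3.48 to 0.71. Markers of other cells moved as well: 10 microglia markers summed to 43.9 to 57.1 CPM in control and 229 to 352 in Mfp2-/- retinas and 9 Müller glia markers to 3516 to 4052 and 4583 to 6220. The sums of 10 bipolar cell markers, of which 7 were upregulated and 1 downregulated, were 2159 to 2554 and 2540 to 3346 and overlapped. The 11 markers of the retinal pigment epithelium, at 214 to 441 and 337 to 592.5 CPM, and the 8 lens markers, at 189.5 to 997 and 230.2 to 4045 CPM, overlapped as well, and Mfp2-/- replicates 2 and 3 were the highest in lens markers. No listed marker was at 0 in every library. In Mfp2-/- replicates 2 and 3 fewer reads were assigned to no annotated feature than in the other 6 libraries (20.9% and 27.6% of reads aligned to a single place, against 36.3% to 46.2%). The part of these differences in the results was not tested. From read counts of whole retinas alone, fewer photoreceptors and less RNA in each of them cannot be told apart. In retinal sections from mice of the same age, the authors counted photoreceptor nuclei and found their number normal. They also saw more photoreceptor nuclei with a stain for apoptosis at that age. The number of photoreceptors in the sequenced retinas was not tested.

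All 10 genes were downregulated in Mfp2-/- retinas in edgeR's quasi-likelihood test, at an adjusted p under 0.05 over the 12516 genes tested. Of all genes tested, 27.0% changed and 13.2% were downregulated. In all 10 every Mfp2-/- library lay below every control library, which was so in 15.8% of all genes, while 15.1% lay wholly above. Of the 10 genes, 9 fell at least 4-fold and 8 at least 8-fold, against 2.47% and 1.01% of all genes. The median log2 fold change of the 10 genes was -3.58, that of all genes -0.0039. The genes did not fall alike. Guca1b fell 38.3-fold and Arr3 1.66-fold, with log2 fold changes of -5.26 (standard error 0.22) and -0.73 (standard error 0.19). Together the 10 genes took 1.35% ± 0.20 of the counts in genes in control and 0.101% ± 0.013 in the Mfp2-/- group (SD over 4 mice each).

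**Figure D1:**
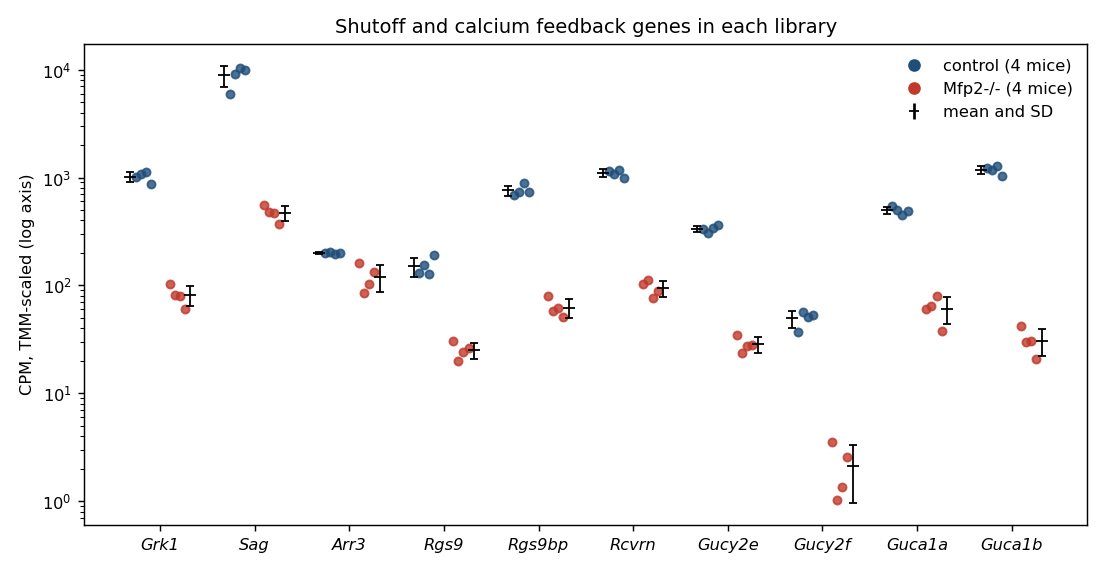
CPM on a log axis of the 10 genes in each library, with every point 1 mouse and bars for the group mean and its SD (4 mice each). The red Mfp2-/- points lie below the blue control points in all 10 genes, by the widest margin in Guca1b (1178 against 30.7 CPM on average) and by the narrowest in Arr3 (199.99 against 120.3 CPM).

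Shutoff of the visual pigment begins with Grk1 (ENSMUSG00000031450.8, chromosome 8, 13405081 to 13421951, plus strand of GRCm38), the kinase that phosphorylates light-activated opsin. Its level was 1001, 1073, 1132 and 878 CPM in control replicates 1 to 4 and 103, 80.8, 80.3 and 60.3 CPM in Mfp2-/- replicates 1 to 4. The Mfp2-/- libraries kept 5.91% to 10.1% of the control mean, and the highest of them stayed 8.56-fold under the lowest control. The log2 fold change was -3.65 (standard error 0.19, adjusted p = 2.9e-07 in edgeR).

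Sag encodes rod arrestin, also called S-antigen, which binds phosphorylated pigment and blocks transducin (ENSMUSG00000056055.13, chromosome 1, 87803680 to 87845158, plus strand). Its level was 5993, 9192, 10446 and 9867 CPM in control and 558, 483, 474 and 368 CPM in Mfp2-/- retinas, in the order of the replicates. Control replicate 1 was lower than the other controls, at 67.5% of the control mean, and was still 10.7-fold above the highest Mfp2-/- library. The log2 fold change was -4.24 (standard error 0.22, adjusted p = 3.2e-07). Sag alone took 0.846% ± 0.196 of the counts in genes in control and 0.0486% ± 0.0073 in the Mfp2-/- group, and the other 9 genes together 0.503% ± 0.029 and 0.0522% ± 0.0067 (SD over 4 mice each).

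Arr3, the cone arrestin gene on the X chromosome (ENSMUSG00000060890.11, 100605497 to 100618493, plus strand), behaved differently. It was at 201, 204, 194 and 201 CPM in control, a spread of 1.93% of the mean, and at 162, 84.9, 103 and 132 CPM in Mfp2-/- retinas, a spread of 28.1%. The groups did not overlap, but the lowest control was only 1.203-fold above the highest Mfp2-/- library. The log2 fold change of -0.73 had an adjusted p of 0.0148, the largest among the 10 genes. Mfp2-/- replicates 2 and 3, which stood apart in lens markers, were the lowest in Arr3. Without both of them, the log2 fold change of Arr3 was -0.45 (adjusted p = 0.0197) and the gene stayed downregulated.

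Transducin is switched off by RGS9, which speeds GTP hydrolysis, held on the disc membrane by its anchor, the product of Rgs9bp. Rgs9 (ENSMUSG00000020599.13, chromosome 11, 109225355 to 109298129, minus strand) was at 129, 155, 127 and 192 CPM in control and 30.4, 19.8, 23.9 and 26.1 CPM in Mfp2-/- retinas. It kept 13.1% to 20.2% of the control mean. On the log2 scale the change was -2.58 (standard error 0.19, adjusted p = 3.2e-06). The single exon gene Rgs9bp (ENSMUSG00000056043.5, chromosome 7, 35578993 to 35585582, minus strand) was at 689, 740, 882 and 729 CPM in control and 79.6, 57.4, 61.2 and 50.4 CPM in Mfp2-/- retinas. It kept 6.63% to 10.5% of the control mean. The log2 fold change was -3.61 (standard error 0.18, adjusted p = 2.3e-07). RGS9 is also made outside the retina in the striatum, in another splice form, and the counts per gene do not separate the forms. Gnb5, the β subunit that completes the complex, had 0 to 7 counts in each library and was not tested.

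Recoverin is a calcium sensor that restrains the kinase while calcium is high. Its gene Rcvrn (ENSMUSG00000020907.1, chromosome 11, 67695326 to 67703333, plus strand) was at 1154, 1081, 1184 and 985 CPM in control and 102, 113, 75.6 and 89.0 CPM in Mfp2-/- retinas. On the log2 scale the change was -3.54 (standard error 0.16, adjusted p = 1.8e-07). Here Mfp2-/- replicate 2 was the highest of its group, whereas in Arr3, Rgs9, Gucy2e and Gucy2f it was the lowest. Rcvrn lies inside Glp2r on the other strand and shares no exon bases with it, and Glp2r had 31 counts over the control and 37 over the Mfp2-/- libraries. The authors also measured recoverin protein by Western blot at this age. They found it reduced in Mfp2-/- retinas, by a smaller proportion than the reads of Rcvrn.

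The membrane guanylate cyclases make cGMP again after a flash. Gucy2e, the gene of the cyclase GC1 (ENSMUSG00000020890.11, chromosome 11, 69218117 to 69237036, minus strand), was at 332, 307, 344 and 359 CPM in control and 35.0, 23.4, 27.2 and 27.9 CPM in Mfp2-/- retinas. On the log2 scale the change was -3.56 (standard error 0.16, adjusted p = 1.6e-07), and control libraries spread by 6.63% of their mean. Gucy2f, the gene of GC2 on the X chromosome (ENSMUSG00000042282.4, 142081160 to 142196931, minus strand), had 101, 126, 158 and 151 counts in control and 10, 2, 4 and 7 counts in Mfp2-/- retinas. In CPM this was 36.8, 57.0, 51.0 and 52.6 against 3.54, 1.02, 1.34 and 2.57. Its log2 fold change was -4.47 (standard error 0.30, adjusted p = 1.6e-06). With so few counts the size of the fall was known less closely than in the other genes: the summed counts, 536 over the controls and 23 over the Mfp2-/- libraries, stood at 22.4 to 1 after scaling, and the 95% exact binomial interval, for counting error alone, ran from 14.7 to 35.6. Gucy2f passed the filter on low counts through the control libraries.

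The cyclases are driven by the guanylate cyclase activating proteins GCAP1 and GCAP2, which turn them on when calcium falls. Their genes stand tail to tail on chromosome 17. Guca1b, which encodes GCAP2 (ENSMUSG00000023979.14, 47385393 to 47392967, plus strand), ends 1590 bases from the end of Guca1a, which encodes GCAP1 (ENSMUSG00000023982.8, 47394558 to 47400584, minus strand), and the annotation gives them no shared exon bases. Guca1b was at 1237, 1164, 1277 and 1034 CPM in control and 41.8, 30.0, 30.6 and 20.6 CPM in Mfp2-/- retinas. It kept 1.75% to 3.55% of the control mean. Its log2 fold change of -5.26 (adjusted p = 1.4e-07) was the 11th lowest of the 12516 genes. Guca1a was at 542, 495, 454 and 489 CPM in control and 60.9, 64.5, 79.7 and 37.9 CPM in Mfp2-/- retinas. It kept 7.65% to 16.1% of the control mean. The log2 fold change was -3.03 (standard error 0.21, adjusted p = 2.4e-06). Guca1a was highest in Mfp2-/- replicate 3, Rcvrn in replicate 2 and the other 8 genes in replicate 1.

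Ordered by log2 fold change, Guca1b lay lowest, followed by Gucy2f and Sag. Grk1, Rgs9bp, Gucy2e and Rcvrn came next within 0.12 of each other (-3.65 to -3.54), which is less than the standard error of any of them (0.16 to 0.19). Guca1a, Rgs9 and Arr3 changed least.

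To compare genes without any scaling between libraries, the log2 ratio of 2 genes was taken within each library for 8 pairs. The exact permutation test over 4 against 4 libraries, two-sided, cannot give a p below 0.0286. Guca1a to Guca1b was at -1.19, -1.23, -1.49 and -1.08 in control and 0.54, 1.10, 1.38 and 0.87 in Mfp2-/- retinas, so that the gene with fewer reads in every control had more in every Mfp2-/- library. The ratio changed by 2.22 on the log2 scale, which is 4.66-fold (exact permutation p = 0.0286, adjusted over the 8 pairs p = 0.0571). Sag to Arr3 moved from 5.44 ± 0.38 to 1.99 ± 0.45 (SD, n = 4; exact permutation p = 0.0286, adjusted p = 0.0571), a fall of 10.9-fold in rod relative to cone arrestin reads. Rgs9 to Rgs9bp rose by 1.05 and Gucy2e to Gucy2f by 0.97, with no overlap between the groups and the same p. These 4 differences had the smallest p the design allows and did not pass after adjustment. For Gucy2e to Gucy2f the gap between the groups was narrow, with 3.17 in control replicate 1 and 3.24 in Mfp2-/- replicate 1. Gucy2f had only 10, 2, 4 and 7 counts in the Mfp2-/- libraries, so the lack of overlap in this pair rests on few reads. Without both Mfp2-/- replicates 2 and 3, the ratio of Gucy2e to Gucy2f changed by 0.52.

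In the other pairs the groups overlapped. Rcvrn to Grk1 differed by 0.12 (exact permutation p = 0.457), with Mfp2-/- libraries at -0.01, 0.48, -0.09 and 0.56 around controls at 0.01 to 0.21. Grk1 to Sag differed by 0.55 (exact p = 0.0571, adjusted p = 0.0914), with controls spread from -3.49 to -2.58 and Mfp2-/- libraries closely placed from -2.61 to -2.44. Gucy2e to Guca1a differed by -0.50 and Gucy2f to Guca1b by 0.75 (exact p = 0.143 and adjusted p = 0.163 for both), each with the Mfp2-/- libraries more widely spread than the controls.

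**Figure D2:**
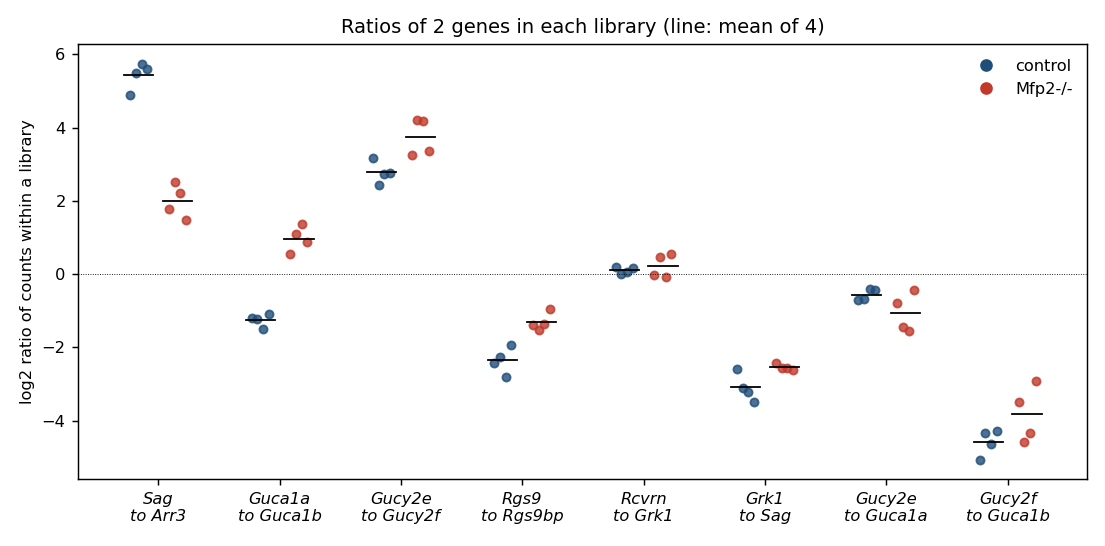
Log2 ratio of the counts of 2 genes within each library for the 8 pairs, with 4 control points in blue, 4 Mfp2-/- points in red and lines for the means. The groups stand apart for Sag to Arr3, Guca1a to Guca1b, Rgs9 to Rgs9bp and, narrowly, Gucy2e to Gucy2f, and overlap in the other 4 pairs.

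The same genes were then set against the summed counts of the 12 rod markers in each library, a comparison chosen after the data were seen and given without a test. Against the rod markers, 97.6% of all genes tested were higher in every Mfp2-/- than in every control library and 0.0639%, or 8 genes, were lower in every one. Guca1b was among these 8, with a log2 ratio that went from -4.24 ± 0.05 in control to -5.16 ± 0.25 in Mfp2-/- retinas. Sag went from -1.36 ± 0.47 to -1.20 ± 0.10 and Gucy2f from -8.83 ± 0.39 to -8.99 ± 0.75, and both overlapped between the groups (SD, n = 4). Grk1, Rgs9bp, Rcvrn and Gucy2e were higher relative to the rod markers by 0.71, 0.75, 0.83 and 0.81, Guca1a by 1.31 and Rgs9 by 1.80, without overlap. Arr3 was higher by 3.60 relative to the rod markers, whereas relative to the sum of the 9 cone markers, which went in both directions, it went from -2.93 ± 0.11 to -3.06 ± 0.41, and there the groups overlapped.

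**Figure D3:**
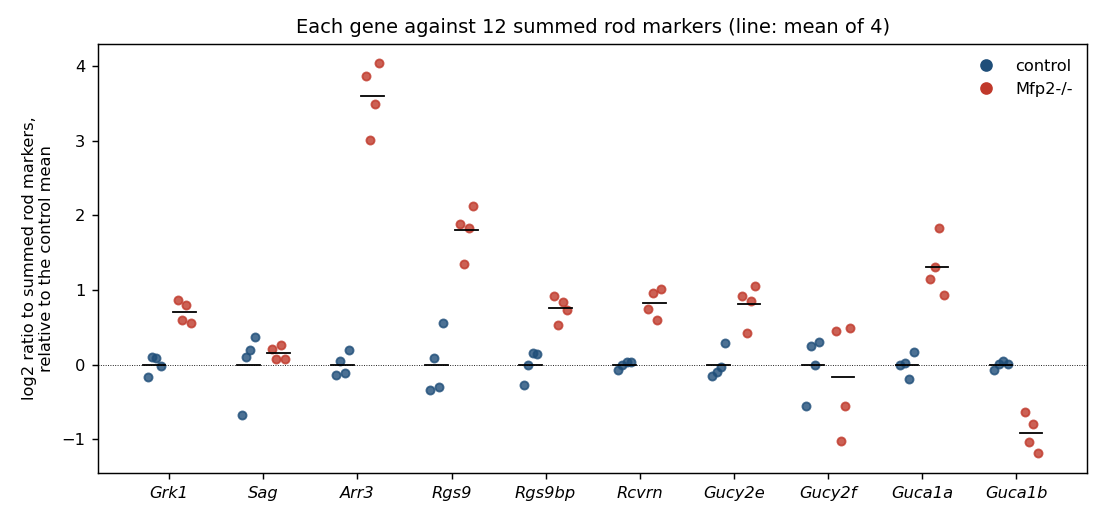
Log2 ratio of each gene to the 12 summed rod markers in each library, less the control mean, with 4 control points in blue, 4 Mfp2-/- points in red and lines for the means. Guca1b lies below 0 in all 4 Mfp2-/- libraries, Sag and Gucy2f overlap the controls, and Arr3 stands 3.60 above them on average.

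The activating side of the cascade was read from 17 genes of transducin, PDE6, the cyclic nucleotide-gated channels and the exchangers, all of which were tested. Of these 12 were downregulated and 2 upregulated, with a median log2 fold change of -3.11 beside -3.58 for the shutoff and feedback genes and -0.0039 for all genes, of which 13.2% were downregulated and 13.8% upregulated. The lowest were Pde6b (-6.60), a catalytic subunit of rod PDE6, Gnat1 (-5.39), the rod transducin α subunit, and Slc24a1 (-4.99), the rod sodium, calcium and potassium exchanger, with adjusted p of 7.6e-07, 5.8e-08 and 5.6e-07. The 2 that rose were Gnb3 (0.71, adjusted p = 0.00165), a transducin β subunit gene of cones and also of ON bipolar cells, and Pde6c (0.55, adjusted p = 0.0341), the catalytic subunit gene of cone PDE6. Some other cone genes of the list were downregulated, namely Gnat2 (-1.03, adjusted p = 0.000259), Gngt2 (-0.59, adjusted p = 0.00938) and Pde6h (-0.47, adjusted p = 0.0338), which were named after their values were seen. The cone channel genes Cnga3 (0.03, adjusted p = 0.961) and Cngb3 (-0.77, adjusted p = 0.299) were not called. Pde6h was not called when any library other than Mfp2-/- replicate 2 was left out (adjusted p 0.0583 to 0.107), while Gnat2 and Gngt2 were called in each case. Slc24a2, the exchanger of cones, was at 0.18 (adjusted p = 0.710), and at 0.66 (adjusted p = 0.007) without both Mfp2-/- replicates 2 and 3. Pde6c lost its call without any one of 6 libraries, control replicates 1 to 4 and Mfp2-/- replicates 1 and 4 (adjusted p 0.0535 to 0.0872). Thus the log2 fold changes of the shutoff genes, from -5.26 to -0.73, lay within those of the activating genes, from -6.60 to 0.71.

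Among 8 genes whose products bind, carry or assist proteins of the cascade, 7 were tested, 4 downregulated and 2 upregulated, beside 13.2% and 13.8% of all genes. Their median log2 fold change was -1.82. Pdc, which encodes phosducin, a binder of transducin βγ, fell most (-4.14, adjusted p = 1.8e-07), then Tulp1, needed for protein transport to the outer segment (-3.05, adjusted p = 2.2e-07), and Unc119, a carrier of acylated transducin (-2.31, adjusted p = 1.9e-06). Rd3, named after its value was seen, encodes a protein that carries the guanylate cyclases to the outer segment and restrains them. It averaged 187 ± 33 CPM over controls and 52.8 ± 10.6 CPM over Mfp2-/- libraries (SD, n = 4), a log2 fold change of -1.82 (adjusted p = 4.9e-05), beside -3.56 and -4.47 for Gucy2e and Gucy2f. Calm2, a calmodulin gene that many cells express, rose (0.47, adjusted p = 0.0212), and Calm3 was at 0.57 (adjusted p = 0.0658). Calm2 was not called when control replicate 2, 3, 4 or Mfp2-/- replicate 3 was left out (adjusted p 0.0561 to 0.0736), and Calm3 was called when Mfp2-/- replicate 1 or 4 was left out (adjusted p 0.0431 and 0.0354).

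Genes of the same families that act outside the cascade served as a further comparison. The list held 25 G protein-coupled receptor kinases, β-arrestins, RGS proteins, neuronal calcium sensors and guanylate cyclases, of which 21 were tested. Of these 1 was downregulated and 5 upregulated, with a median log2 fold change of 0.37, where 13.2% and 13.8% of all genes were. The lowest were Hpcal1, a neuronal calcium sensor related to recoverin (-0.67, adjusted p = 0.0127), Grk4 (-0.51, adjusted p = 0.324) and Rgs7bp, the relative of Rgs9bp (-0.29, adjusted p = 0.620). The highest were Gucy1a2, a subunit of soluble guanylate cyclase (1.10, adjusted p = 0.0799), and the calcium sensors Ncs1 (0.80, adjusted p = 0.0133) and Ncald (0.65, adjusted p = 0.00609). Gucy1a2 had few reads, with 6, 9, 4 and 9 counts in control and 22, 9, 9 and 19 in Mfp2-/- libraries, and its groups overlapped. Without both Mfp2-/- replicates 2 and 3, Rgs7bp was at 0.31 (adjusted p = 0.179) and Gucy1a2 rose (1.49, adjusted p = 0.0244). The number of upregulated relatives depended on the scaling, being 12 with upper-quartile factors or total counts alone in place of TMM factors. Over all 12516 genes these scalings called 3691 and 3714 in either direction, in place of 3377. They lowered the share of decreases among the called genes from 48.8% to 35.8% and 34.8% and moved the median log2 fold change to 0.12. Without control replicate 2, control replicate 4 or Mfp2-/- replicate 3 the relatives upregulated numbered 3, and likewise with the replicate number as a block. Over all genes these fits called 2474 of 12820, 2580 of 12792, 2484 of 12757 and 2845 of 12516 in either direction. Decreases made up 51.4%, 48.2%, 51.7% and 52.4% of those calls.

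**Figure D4:**
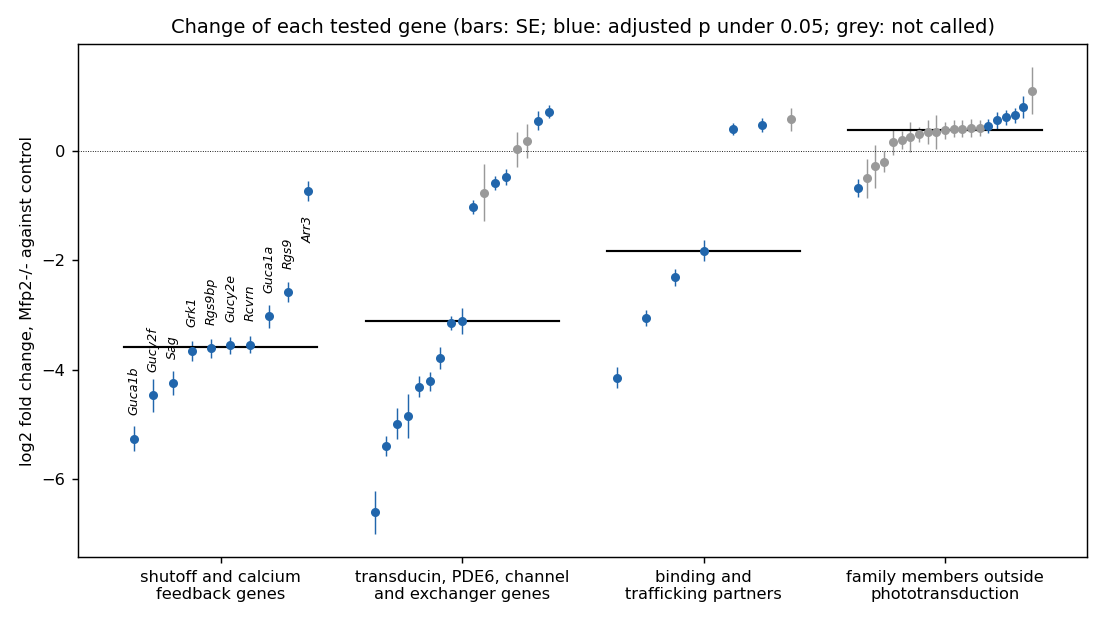
Log2 fold change, Mfp2-/- over control, of the tested genes in 4 lists, with bars of 1 standard error, blue points for an adjusted p under 0.05, grey points for genes not called and black lines for the medians (-3.58, -3.11, -1.82 and 0.37 from left to right). The 10 shutoff and feedback genes on the left all lie below 0, with Arr3 nearest to it, and the relatives outside phototransduction on the right lie around and above 0.

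Finally, the pattern over the 8 libraries was compared with that of all other named genes. Pearson's r was taken between the log2 CPM of a gene and the median standardised profile of the 10 genes, as a description over 8 libraries that fall into 2 groups. For 9 of the 10 genes r was 0.985 to 0.999, and for Arr3 it was 0.861. Each of the 10 is itself part of that median, so these values are not an independent measure of likeness. Among the genes outside the list with the highest r were Samd11, Nxnl2, Klhl18 and Rdh12, a retinol dehydrogenase gene of photoreceptors, at 0.998 to 0.999. Their log2 fold changes ran from -4.05 in Nxnl2 to -2.09 in Klhl18. Of 11431 named genes 98 had an r of 0.99 or more, so these were the nearest of many.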

How the data were processed

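Raw counts per gene symbol were used as deposited by the authors, who sequenced QuantSeq 3′ libraries and list FastQC 0.11.7, HISAT2, SAMtools 1.5, HTSeq 2.7.14 and mm10. For annotation release and strand setting, the sources used here give none. HTSeq's rows that name no gene held 60.6% to 65.4% of the table totals in control and 59.2% to 66.9% in Mfp2-/- libraries and were left out. In R 4.3.3, edgeR 4.0.16 (filterByExpr, TMM factors, quasi-likelihood test, Benjamini-Hochberg adjustment over 12516 genes) compared 4 control with 4 Mfp2-/- libraries, after a test of the script on simulated data. In the simulation, with 200 genes changed, edgeR called 2.99% of 1.5-fold, 43.3% of 2-fold and 84.8% of 4-fold changes. The data held more changes, with 3377 genes called, so these shares need not hold there. A gene that was not called may still have changed. Standard errors are the log2 fold change over the root of the F statistic. For log2 CPM the prior count was 2, and ratios within a library added 0.5 to each count. Each library came from 1 mouse, so p-values measure the spread between mice. Alternatives included DESeq2 1.42.0 and limma 3.58.1. Positions are from GENCODE M21 on GRCm38. The genes and lists were chosen with earlier results of these data known. Besides the 10 genes and Hsd17b4, the 3 lowest and 3 highest of each pathway list were named, with genes called against most of their list and the 5 most alike profiles, gene models without names left out. Opsins were left out of the list of activating genes. Some genes that this rule names are not reported here.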

Additional observations from a re-analysis of the deposited data

How the results depend on the processing

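All 10 genes stayed downregulated with the 4 other scalings (RLE, upper-quartile, total counts, and TMM from other than photoreceptor genes), without a filter, in DESeq2 and limma-voom, in the series-wide matrix, without each library and without both Mfp2-/- replicates 2 and 3. With 10 counts required in every library 9 were downregulated, since Gucy2f was not tested. The largest adjusted p was that of Arr3, 0.0491 without Mfp2-/- replicate 3. Replicate numbers did not pair the libraries (correlation of deviations from the group means 0.08, -0.16, 0.25 and 0.21 for numbers 1 to 4), and control replicates 1, 2 and 3 deviated most alike with another number. With the replicate number as a block 2845 in place of 3377 of all genes were called and the 10 calls stayed, while 1 activating gene, 0 partners and 3 relatives were upregulated in place of 2, 2 and 5. Pair ratios have the same differences under the block, and 4 pairs cannot give a sign-flip p below 0.125. Upregulated activating genes numbered 1 to 2, partners 0 to 3 and relatives 3 to 6 when each library was left out. No filter left 0 partners upregulated. Upper-quartile factors and total counts gave 12 relatives, with 3691 and 3714 of all genes called in either direction. The summed share of the 10 genes was 13.4-fold higher in control, 12.7 to 14.3-fold without each library, and 9.40-fold when the 20 most counted genes, Sag among them, were left out of both sums. The pair ratios kept their sign when 1 was added to each count and when each library was left out. Depth limits Gucy2f above all, at 2 to 10 counts in the Mfp2-/- libraries.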
